A study of Homo sapiens with 9 samples.

Results

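NRG1 is 1 of the 20090 protein-coding genes on chromosomes 1 to 22 and X of the annotation, and it was followed here by its contacts with the rest of the genome. The gene was chosen by name and lies on the plus strand of human chromosome 8 at chr8:31496738-32713184 (hg19), over 1216447 bp. Contacts came from 5 Hi-C libraries of IMR90 cells, a human lung fibroblast line, that carry ER:HRAS(G12V), an oncogenic HRAS fused to the oestrogen receptor. The 3 growing libraries came from cells without tamoxifen, and the 2 RIS libraries (RAS-induced senescence) from cells given 100 nM 4-hydroxytamoxifen (4OHT) for 6 days. Growing replicate 3 also carried an MSCV vector by its label. All groups therefore share the construct, and no library of cells without ER:HRAS(G12V) but with 4OHT was used, so the effects of the drug and of the oncogene cannot be told apart. Each library pools many nuclei, so a contact that is weaker in every cell and one that is lost from a share of the cells cannot be told apart. Transcription was not measured in these libraries. The study calls the replicates biological, but the labels do not name separate cultures, and p-values measure the spread between these libraries.

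NRG1 encodes neuregulin 1, a growth factor of the EGF family that binds the receptor tyrosine kinases ERBB3 and ERBB4. Its transcripts start at several far-apart promoters and differ in the first part of the protein they encode. Hi-C counts how often stretches of the genome are joined by ligation in fixed nuclei, and so reads how near they lie. Chromatin is folded into topologically associating domains (TADs), within which contacts are frequent, and the same chromosome is divided into A compartments, open and rich in active genes, and B compartments, closed. The TAD at chr8:32440001-33320000, which holds the last part of NRG1, loses contacts in RIS, and its mean contact is not the subject here.

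At 40 kb resolution NRG1 covers 31 bins, all of them measured, and was divided into 3 segments of equal length, a 5′ segment of 11 bins, a middle segment of 10 and a 3′ segment of 10. Of its annotated protein-coding transcripts, 7 start in the bin chr8:31480001-31520000, called the first promoter bin here. Another 9 start in the bin chr8:32400001-32440000, the second promoter bin, among them the canonical transcript at position 32405829. The second promoter bin lies 920 kb downstream of the first and directly before the TAD. Further transcripts start 40, 80 and 160 kb downstream of the second promoter bin. Distances below are counted from the second promoter bin.

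The libraries held 109967509 to 180775315 contacts, recovered from the balanced values. Between 92.4% and 93.0% of the contacts of growing libraries and 90.2% to 90.4% of those of RIS libraries joined bins of the same chromosome. The study's alignment summary puts growing 3 and RIS 2 in a class with a higher share of duplicate reads than the other libraries, so changes within each class were also computed. Balancing gives every bin the same total, so the values below say how the contacts of a bin are divided among partners. Before balancing, the 31 NRG1 bins together held nearly the same coverage in both states, taken as log2 against the library's median bin (0.36 in growing and 0.37 in RIS in the means). The second promoter bin was covered less in both RIS libraries, with a log2 difference of -0.22, and the first promoter bin more, with 0.10.

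In shares, the contacts of the second promoter bin moved from the stretch downstream of it to other chromosomes, to distant parts of chromosome 8 and to the stretch upstream of it. Contacts with bins within 2 Mb downstream made up 45.3%, 44.1% and 47.1% of its balanced contacts in growing 1 to 3, and 15.6% and 19.2% in RIS 1 and 2. Contacts with other chromosomes made up 5.51%, 6.14% and 4.89% in growing and 20.4% and 18.7% in RIS, 3.54-fold more in the mean. Both RIS libraries lay far outside the range of the growing libraries. The numbers behind these shares were 233, 305 and 252 recovered contacts with other chromosomes in growing and 615 and 669 in RIS, out of totals of 5148 to 5929 in growing and 3403 to 4069 in RIS. More contacts with other chromosomes were thus seen in the less deeply sequenced RIS libraries. The share on the same chromosome beyond 2 Mb was 12.2% ± 0.73 (SD, n = 3) in growing and 19.3% ± 0.42 (n = 2) in RIS. The share within 2 Mb upstream was 36.8% ± 1.6 (n = 3) in growing and 43.8% ± 0.94 (n = 2) in RIS. Shares in this and the next paragraph are not centred on the library. Over all bins the median share with other chromosomes was 9.86% to 10.2% in growing and 12.8% and 12.9% in RIS.

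The 8 bins from the second promoter bin to the gene end showed the same redistribution with a lower share on both sides. Their share downstream within 2 Mb was 42.4%, 42.3% and 43.0% in growing against 25.3% and 27.1% in RIS. Their share upstream within 2 Mb was 28.7% ± 0.44 (n = 3) in growing and 21.1% ± 0.91 (n = 2) in RIS. Contacts with other chromosomes took 10.04%, 10.6% and 9.80% in growing and 29.9% and 28.5% in RIS, a 2.87-fold difference of the means. A share falls where another grows. The shares within 2 Mb also include contacts among the 8 bins, all but the first of which lie in the TAD. In the tests below, contact of the 3′ segment with the 5′ segment was called lower. That with the middle segment and that with the 1 Mb upstream of the gene were not called. The first promoter bin changed less. Its share downstream within 2 Mb was 33.9% ± 1.83 (SD, n = 3) in growing and 32.6% ± 0.11 (n = 2) in RIS, and the libraries of both groups overlapped. Its share with other chromosomes was 9.62%, 10.1% and 10.4% in growing against 18.9% and 17.9% in RIS, 1.83-fold more, and its share beyond 2 Mb on chromosome 8 was lower in RIS (26.6% ± 0.08, n = 2) than in growing (31.2% ± 1.8, n = 3). With 3 against 2 libraries a two-sided exact permutation test of 1 value cannot go below p = 0.1, so the tests below were fitted across all bins, pairs or genes.

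**Figure D1:**
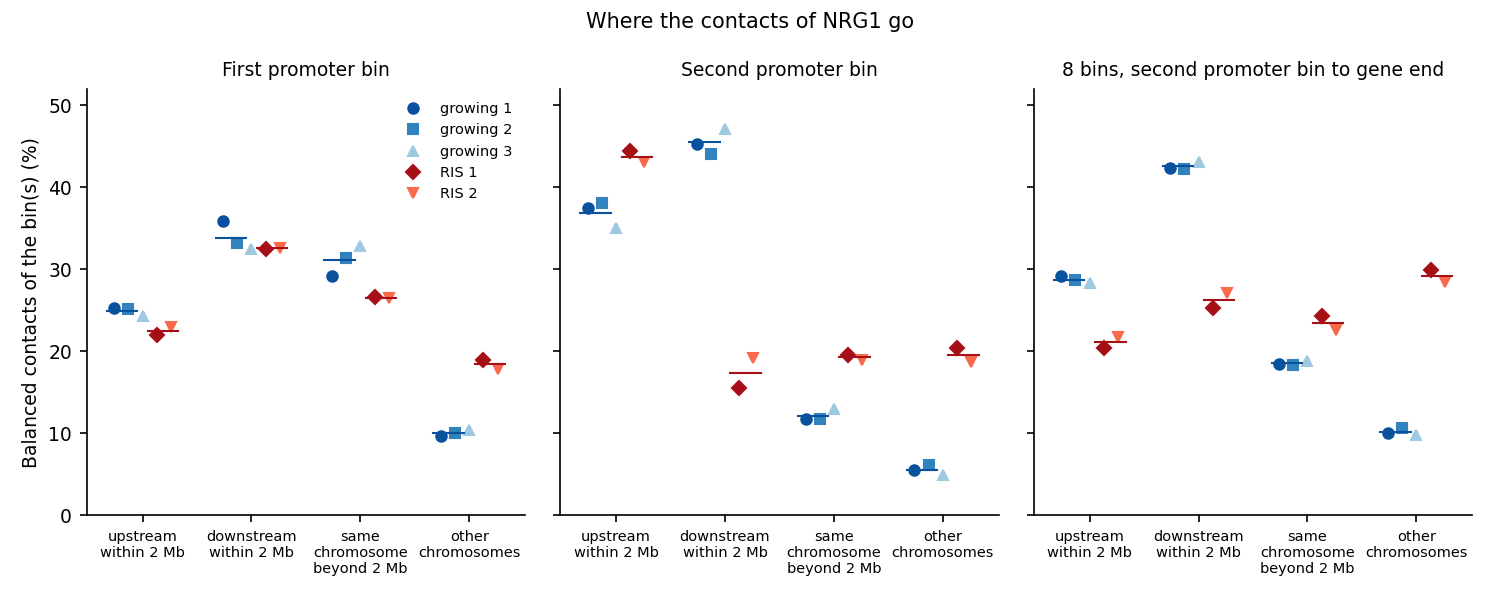
Share of the balanced contacts (%, y axis) that the first promoter bin, the second promoter bin and the 8 bins from the second promoter bin to the gene end made with 4 classes of partner (x axis). Points are the 5 libraries and lines the group means. The downstream share of the second promoter bin sits at 44.1% to 47.1% in growing and at 15.6% and 19.2% in RIS.

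The contacts of the 2 promoter bins were then split by direction and distance into 12 arms, each the log2 mean of observed over expected contact, where expected is the mean of the chromosome at that distance. Fitted with limma over all bins with Benjamini-Hochberg adjustment, 5 of the 12 arms were called at 5%, 4 of the second promoter bin and 1 of the first. All 3 downstream arms of the second promoter bin fell. At 80 to 400 kb downstream its log2 observed/expected contact was 0.54, 0.57 and 0.63 in growing against -1.24 and -0.97 in RIS, a fall to 0.311 of the growing level (log2 change -1.68 ± 0.09 SE, limma adjusted p = 0.00149). At 400 to 1000 kb the growing libraries read 1.78, 1.75 and 1.88 and the RIS libraries 0.14 and 0.31 (-1.58 ± 0.10 SE, adjusted p = 0.0131). At 1000 to 2000 kb the growing libraries read -1.81, -2.25 and -1.69 and the RIS libraries -3.96 and -3.56 (-1.85 ± 0.22 SE, adjusted p = 0.0257), from 33 to 49 recovered contacts in growing libraries and 5 and 10 in RIS libraries. In each downstream arm the libraries of both groups were well apart.

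No upstream arm of the second promoter bin was called lower. The arm at 80 to 400 kb upstream read 0.85, 0.90 and 0.77 in growing and 1.14 and 1.16 in RIS, a rise of 0.30 ± 0.07 SE (limma adjusted p = 0.0252). The arms at 400 to 1000 kb and 1000 to 2000 kb upstream changed by -0.10 and 0.06, within the spread between libraries. For the first promoter bin only the arm at 1000 to 2000 kb downstream, which reaches the TAD and beyond, was called, with 0.28, 0.17 and 0.07 in growing and -0.47 and -0.82 in RIS (-0.82 ± 0.16 SE, adjusted p = 0.0485). Its arm at 1000 to 2000 kb upstream read -3.29, -2.62 and -2.80 in growing and -4.06 and -3.87 in RIS, without overlap, and just missed the threshold (-1.06 ± 0.22 SE, adjusted p = 0.0542, called in 1 of 9 alternatives), from 10 to 18 recovered contacts in growing and 5 and 7 in RIS. Its arm at 80 to 400 kb downstream rose in value from 0.47 to 0.69 in the means and missed the threshold (adjusted p = 0.0770). Over all bins, 17.2% of the upstream and 17.5% of the downstream arms at 80 to 400 kb were called in either direction, 6.19% and 6.14% at 400 to 1000 kb, and 4.77% and 4.41% at 1000 to 2000 kb. The fall at 80 to 400 kb downstream of the second promoter bin was called under all 9 alternatives, with adjusted p-values up to 0.0184. The other 4 calls were lost without growing replicate 1, 2 or 3 and with the replicate block. Of the 9 alternatives, 5 called the fall at 400 to 1000 kb and 4 that at 1000 to 2000 kb downstream of the second promoter bin, 1 called its upstream rise, and none called the fall of the first promoter bin (lowest adjusted p = 0.0557).

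**Figure D2:**
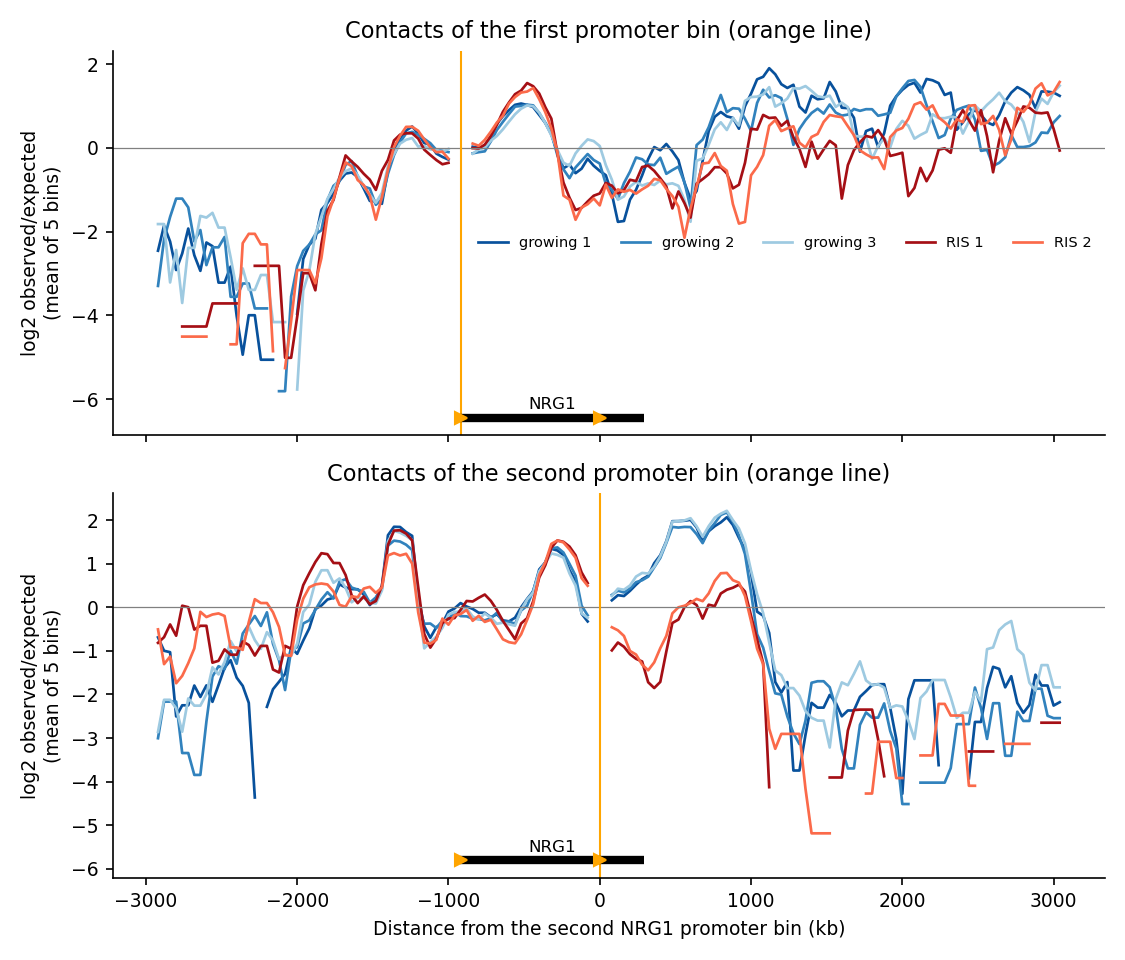
Contacts of the first promoter bin (top) and of the second promoter bin (bottom) along the 150 bins around NRG1, as log2 observed/expected contact averaged over 5 neighbouring bins, against distance from the second promoter bin in kb. Lines are the 5 libraries and break where no contact was seen, the black bar is NRG1, and orange marks the promoter bins. From 80 kb to about 1000 kb downstream of the second promoter bin both RIS lines run below all growing lines, and from 80 to 280 kb upstream both run above them.

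Contacts between start sites were lower in RIS for some pairs of bins. The pair of the second promoter bin with the start bin 160 kb downstream held 127, 172 and 161 recovered contacts in growing and 23 and 46 in RIS. Its log2 balanced contact changed by -1.61 ± 0.22 SE (limma adjusted p = 0.199 over 1959041 pairs, voom on recovered contacts adjusted p = 1.53e-07). The pair with the bin 40 kb downstream held 337, 364 and 467 contacts in growing and 151 and 197 in RIS. In balanced contact its log2 change was smaller, -0.53 ± 0.12 SE (limma adjusted p = 0.293, voom adjusted p = 0.00333). The pair with the bin 80 kb downstream held 124, 161 and 168 contacts in growing and 55 and 103 in RIS and was called by neither model (limma adjusted p = 0.463, voom adjusted p = 0.302). The first and the second promoter bin were joined by 12, 10 and 15 contacts in growing and by 5 and 3 in RIS, without overlap and not called (-0.93 ± 0.44 SE, limma adjusted p = 0.458).

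Among the neighbours, 20 other protein-coding genes start within the 150 bins around NRG1. Only pairs with enough contacts were tested, 4 of the 20 for the first promoter bin and 10 for the second, and none was called by limma or by voom. Only the pair of the second promoter bin with the start of FUT10 and MAK16 had an unadjusted limma p under 0.05. FUT10, a fucosyltransferase gene, and MAK16, a gene of ribosome biogenesis, start in the same bin 920 kb downstream of the second promoter bin. It held 20, 21 and 20 recovered contacts in growing and 5 and 6 in RIS, with no overlap (-1.32 ± 0.22 SE, limma adjusted p = 0.255). DUSP26, which encodes a dual-specificity phosphatase and starts 1040 kb downstream, gave -1.26 with the second promoter bin (adjusted p = 0.456) and -1.32 with the first (adjusted p = 0.495). On the other side, the shared start bin of PURG and of WRN, the RecQ helicase gene of Werner syndrome, gave 0.96 with the first promoter bin (adjusted p = 0.518) and 0.14 with the second (adjusted p = 0.916). TEX15, a gene of meiosis, gave 0.56 with the first promoter bin (adjusted p = 0.594), where the RIS libraries lay above the growing ones on the observed/expected scale as for PURG and WRN, and -0.64 with the second (adjusted p = 0.622). RNF122, a ubiquitin ligase gene, gave 0.20 with the second (adjusted p = 0.866), and TTI2, next to it, gave -0.70 (adjusted p = 0.544). These pairs rest on at most 21 contacts in a library, except that of the second promoter bin with an unnamed gene 80 kb downstream.

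Single pairs of 40 kb bins are shallow, and limma on balanced values called 0 of the 1372 NRG1 pairs tested up to 2 Mb, as it did nearly everywhere (0.000102% of all pairs). Of these pairs, 359 had an unadjusted p under 0.05, 309 lower and 50 higher in RIS. Both bins lay inside the TAD for 87 of them, 76 lower and 11 higher, and did not for 272, 233 lower and 39 higher. The share of all pairs with an unadjusted p under 0.05 was not computed, so this count cannot be set against the genome. The voom model on recovered contacts called 125 of the 1372, 114 lower and 11 higher, where 0.554% of all pairs were called, 0.378% higher and 0.176% lower. Of these, 57 have both bins inside the TAD and 68 do not, but most of the 68 join a bin inside the TAD to a bin outside it. The second promoter bin took part in 22 calls. All of its 19 lower pairs, of 26 tested, lay downstream, with a partner bin inside the TAD. All of its 3 higher pairs, of 38 tested, lay upstream. None of the 47 tested pairs of the first promoter bin was called, with 7 at an unadjusted limma p under 0.05. The largest fall among them joined the second promoter bin to the bin 360 kb downstream, with 147, 160 and 170 recovered contacts in growing and 13 and 17 in RIS (voom log2 change -2.68 ± 0.26 SE). The clearest rise joined it to the bin 120 kb upstream, inside the gene, with 157, 194 and 163 contacts in growing and 201 and 263 in the shallower RIS libraries (0.98 ± 0.10 SE, voom adjusted p = 5.1e-10). By segment, voom called 5 of 526 tested pairs of the 5′, 38 of 623 of the middle and 94 of 484 of the 3′ segment. The 57 calls with both bins inside the TAD all belong to the 3′ segment. Without RIS replicate 1 or 2 the 125 voom calls became 46 or 35.

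Contacts between segments were compared with the same blocks in the 353 protein-coding genes of at least 480 kb. Of the 12 NRG1 blocks 5 were called with limma, all lower in RIS, where 41.6% of all blocks of long genes were called and 22.3% were lower. The count in either direction is near that share and is no result about the gene, so the sizes are described. The 5 were the 3′ segment with itself, the 5′ with the 3′ segment, and each of the 3 segments with the 1 Mb downstream of the gene. The middle segment with the 1 Mb downstream read 0.48, 0.44 and 0.46 in growing and -0.55 and -0.51 in RIS on the log2 observed/expected scale (-0.99 ± 0.04 SE, limma adjusted p = 8e-06). No other gene of the 353 had as low a change in that block. The 3′ segment with itself read -0.15, -0.15 and -0.11 in growing and -1.10 and -1.08 in RIS (-0.95 ± 0.04 SE), and part of that block lies in the TAD. The 5′ segment, which ends 480 kb before the second promoter bin, changed by -0.80 ± 0.05 SE with the 1 Mb downstream, a change as low as in only 3 of 353 genes, itself included. With the 3′ segment it changed by -0.30 ± 0.04 SE (limma adjusted p = 0.00147), as low as in 21 of 353 genes, NRG1 included. The other 7 blocks, those within and between the 5′ and middle segments and those with the 1 Mb upstream among them, changed by -0.14 to 0.08 and were not called. Every segment thus lost contact with the 1 Mb downstream of the gene. For the 3′ segment part of the pairs in that block also lie inside the TAD.

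The same contacts were read against the 11 domains that insulation minima of the mean growing map define in the window. Of the 30 blocks of a segment with a domain, 16 did not overlap between growing and RIS, 14 lower and 2 higher. Since 64.0% of the blocks of all long genes did not overlap, the count itself is no result, and the sizes of the changes are given as a description. With the domain chr8:33440001-34920000, the next after the one that holds the TAD, the 3′ segment read -2.24, -2.01 and -1.76 in growing and -3.37 and -3.36 in RIS, a change of -1.36. For the middle segment the change was -1.05, and for the 5′ segment it was -0.67, from 0.63, 0.60 and 0.74 to -0.11 and 0.08. The 5′ segment thus began above expectation with that domain and ended near it. With the following domain, chr8:34920001-36640000, the changes were -0.17, -0.74 and -1.10 from the 5′ to the 3′ segment. With the domain chr8:32400001-33440000 outside the gene they were -0.76, -1.05 and -0.59, and most pairs of the 3′ segment with it lie inside the TAD. The 2 higher blocks were the 3′ segment with chr8:29160001-29920000 (0.46) and the 5′ segment with chr8:30640001-31040000 (0.18). Upstream domains also gave falls without overlap, of the 3′ segment with chr8:30200001-30480000 (-0.70), chr8:30000001-30200000 (-0.30) and chr8:31040001-32040000 (-0.19), of the 5′ segment with chr8:29160001-29920000 (-0.63) and of the middle segment with chr8:31040001-32040000 (-0.04). The exact permutation p was 0.1, the smallest the design allows, for these values except the 5′ segment with chr8:29160001-29920000 and the 3′ segment with chr8:31040001-32040000, which had 0.2. The direction was kept within the class of fewer duplicates in 24 and within that of more duplicates in 25 of the 30 blocks. Both classes are parts of the libraries that give the overall change, so this agreement is partly built in. Without RIS replicate 2, which leaves 1 RIS library to overlap, the count was 28.

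**Figure D3:**
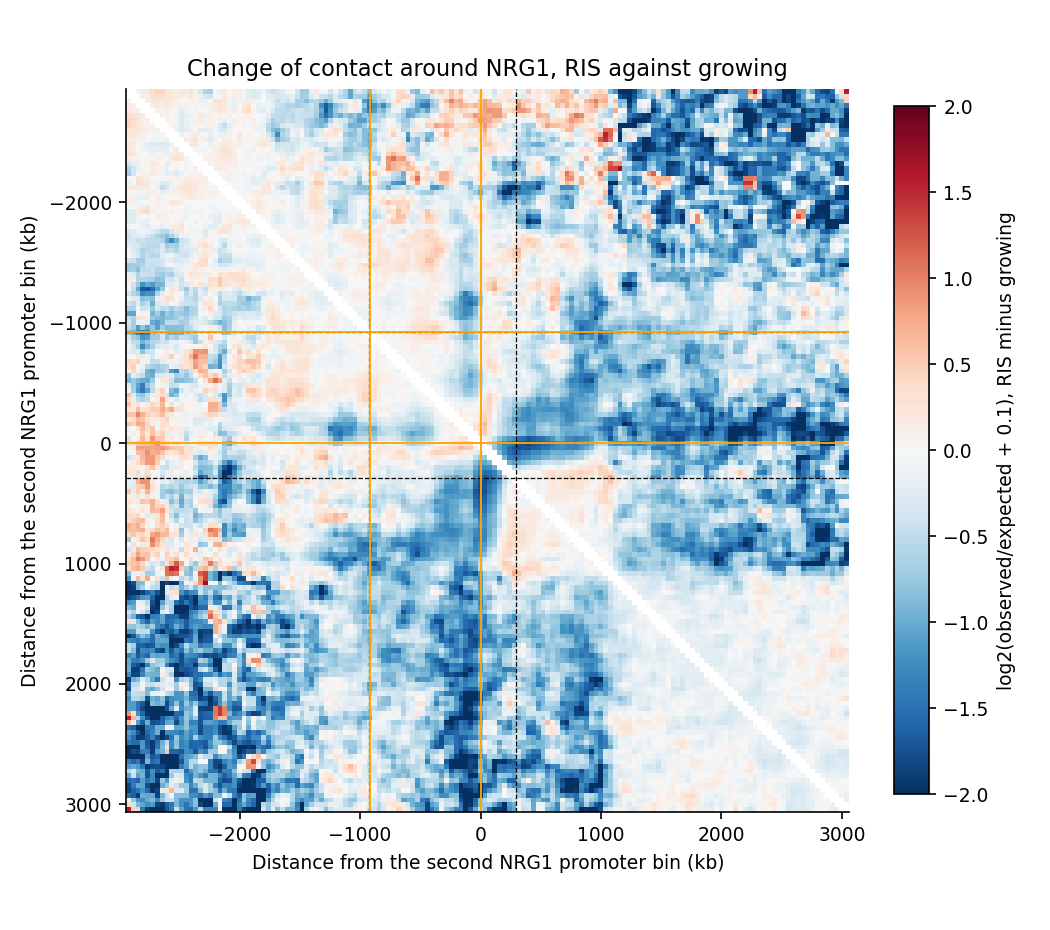
Change of contact around NRG1, as log2(observed/expected + 0.1) of the RIS mean minus that of the growing mean, averaged over 3 × 3 bins and drawn from -2 (blue) to 2 (red) for every pair of bins. Both axes are distance from the second promoter bin in kb, dashed lines are the gene ends and orange lines the promoter bins. The blue stripe to the right of the second promoter bin and of the gene is the loss of downstream contact.

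The insulation score, the log2 mean contact across a window of 520 kb on both sides of a bin relative to the chromosome, is low at borders between domains. It changed in 23 of the 31 NRG1 bins, 7 higher, all in the 5′ segment, and 16 lower, in the middle and 3′ segments. Over all bins 55.9% were called, 30.9% higher and 25.0% lower, so the count says little and the sizes more. The largest fall lay 200 kb downstream of the second promoter bin, with 0.62, 0.59 and 0.62 in growing and -0.74 and -0.70 in RIS (-1.33 ± 0.03 SE, limma adjusted p = 4e-06). Only 1 of the other bins among 68076 had as low a change. The score there rests on 169 pairs, of which 52 lie inside the TAD, and without those 52 the change was -1.34. In the 5′ segment the median change was 0.10, and its 7 higher bins depended on the setting, since a window of 1000 kb called no NRG1 bin higher and 20 lower. Without growing replicate 1 the calls were 14, 1 higher and 13 lower.

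Borders inside the gene stood at the same places in both states. A border at 360 kb upstream of the second promoter bin was found in all 5 libraries, with scores of -0.59, -0.69 and -0.66 in growing and -0.90 and -1.09 in RIS (-0.35 ± 0.06 SE, limma adjusted p = 0.00155). The other lay in the second promoter bin in 4 of the 5 libraries and 1 bin further downstream in RIS 1, with -0.54, -0.58 and -0.66 in growing and -1.04 and -0.91 in RIS (-0.38 ± 0.05 SE, adjusted p = 0.000625). From that border to 200 kb downstream the RIS score stayed between -1.05 and -0.70, where the growing score climbed to 0.62. The border after the TAD, at chr8:33440001-33480000 in the growing mean, had a score of -2.10, and in the RIS mean it lay 1 bin further on with -3.03, although RIS 1 alone kept it in the growing bin.

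**Figure D4:**
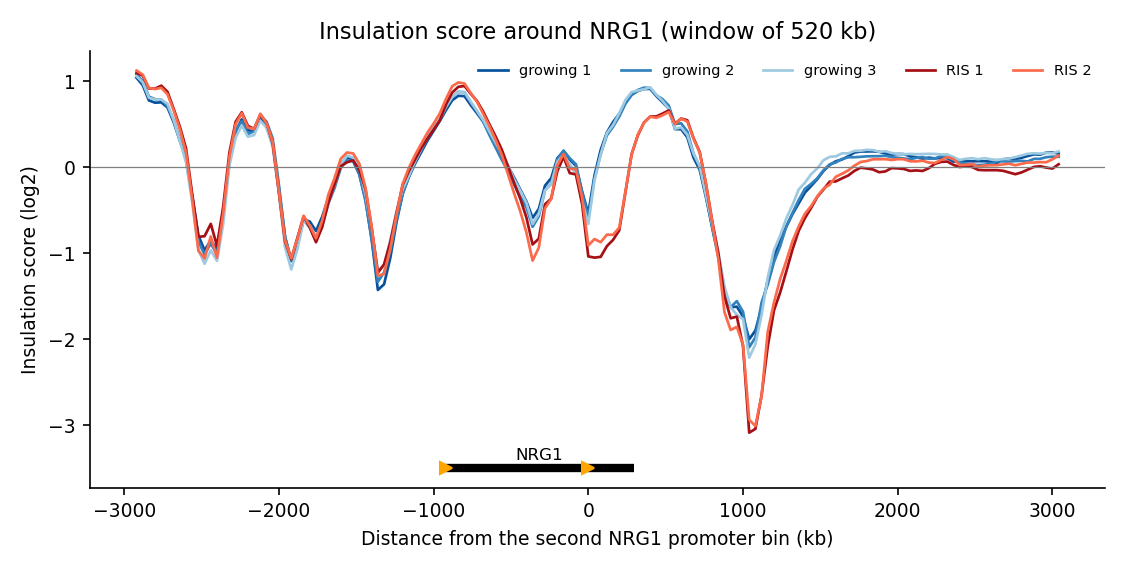
Insulation score (log2, window of 520 kb, y axis) of the 5 libraries along the 150 bins around NRG1, against distance from the second promoter bin in kb, with NRG1 as a black bar and its promoter bins in orange. The dip at 360 kb upstream deepens in both RIS libraries, and from the second promoter bin to the gene end the RIS lines run below the growing lines, by 1.33 at 200 kb downstream.

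The gene straddles a change of compartment. In 120 kb bins, the first component, signed so that A is positive, was negative in all libraries from the gene start to 480 kb upstream of the second promoter bin and positive from 360 kb upstream to the gene end. In RIS 8 of the 11 bins were higher and none lower, where 44.2% of all bins were called and 20.4% were higher. The bin 480 kb upstream read -0.71, -0.73 and -0.62 in growing and -0.02 and -0.14 in RIS (0.61 ± 0.06 SE, limma adjusted p = 0.0014), next to the border but still negative. The 5 negative bins all became less negative, by 0.37 to 0.61, and the 3 positive bins between 360 and 120 kb upstream rose by 0.19 to 0.49. The 3 bins from the second promoter bin on, already at 0.87 to 1.42 in growing, changed by 0.10, -0.01 and 0.06 and were not called. No NRG1 bin changed the sign of its score. Without RIS replicate 1, 4 bins were called.

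At 40 kb, compartment preference was taken as the log2 mean observed/expected contact beyond 2 Mb with A bins minus that with B bins. It was higher in RIS in 13 of the 31 bins and lower in none, where 27.7% of all bins were called and 7.57% were higher. The median change over the 31 bins was 0.62, against -0.10 over all bins. The calls fell in the middle segment (9 of 10) and the 3′ segment (4 of 10) and in none of the 11 bins of the 5′ segment. The largest change lay 80 kb upstream of the second promoter bin, with 0.05, 1.26 and 0.39 in growing and 2.15 and 2.15 in RIS (1.58 ± 0.34 SE, limma adjusted p = 0.0156). These calls depend on scaling, since limma called none of the 31 bins when each library was scaled to a z-score over all bins (22 had an unadjusted p under 0.05), a setting under which 1 of 69519 bins was called over the genome, and 5 were called without RIS replicate 1, 6 without RIS replicate 2 and 7 without growing replicate 2.

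The 2 sides of that difference moved unlike each other along the gene. Contact with A bins was higher in 16 of the 31 bins, all 10 of the 3′ segment among them, where 19.9% of all bins were called and 0.996% were higher. In the second promoter bin it read -0.50, -0.86 and -0.78 in growing and 0.52 and 0.71 in RIS (1.33 ± 0.15 SE, limma adjusted p = 0.00403), a change reached by 6 of 69611 bins, itself included. Contact with B bins was called in 8 bins, where 33.4% of all bins were called. It was lower in 5 bins of the middle and 1 of the 3′ segment and higher in 2 of the 3′ segment. The bin 120 kb upstream of the second promoter bin lost contact with B (-0.76, -0.69 and -0.87 in growing, -1.79 and -1.87 in RIS, change -1.06), while the second promoter bin gained it (-1.77, -1.84 and -1.80 in growing, -1.01 and -1.14 in RIS, change 0.73). The count for B is below that over the genome and is no result about the gene.

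The share of contacts with other chromosomes was higher in RIS in 31 of the 31 NRG1 bins, after centring each library on its median bin, where 41.3% of all bins were called and 21.9% were higher. Centring removes a rise of the median bin from 9.86% to 10.2% in growing to 12.8% and 12.9% in RIS. The first 23 bins rose by 0.40 to 0.74 on the log2 scale. The second promoter bin rose by 1.47 ± 0.09 SE (limma adjusted p = 1.2e-05), from -0.86, -0.74 and -1.01 to 0.68 and 0.53, and no other of the 69621 bins rose as much. The 5 bins from 40 to 200 kb downstream rose by 1.14 to 1.36. The count of 31 was the same under every alternative run, each library left out included.

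The contacts gained with other chromosomes were spread widely. All 22 other chromosomes took part in every library, and no single one took more than 7.84% of the contacts of the 8 bins with other chromosomes in growing or 9.57% in RIS. Of these contacts 66.5%, 67.2% and 67.8% fell on A bins in growing and 72.1% and 71.0% in RIS. Per bin pair, the log2 balanced contact of the 8 bins with A bins of other chromosomes rose by 1.61 and with B bins by 1.34. For the 5′ segment, where B bins took 73.3% to 74.3% of such contacts in growing and 66.3% and 69.0% in RIS, the rise was 1.20 with A and 0.78 with B. In these 4 values the RIS libraries did not overlap the growing libraries. The 4 values are not centred, and the median share of all bins with other chromosomes itself rose by 0.36 on the log2 scale. Rises over all bins by class of partner were not computed.

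The share of cis contacts beyond 2 Mb was higher in 11 of the 31 bins and lower in none, where 54.4% of all bins were called and 32.2% were higher, so the count is near that over the genome and the sizes are described. Of the 11, 9 lie in the 3′ segment, 2 in the middle and none in the 5′ segment. The bin 160 kb downstream of the second promoter bin rose by 1.04 ± 0.07 SE (limma adjusted p = 0.000306), second among 69621 bins, and the second promoter bin by 0.96 ± 0.06 SE, from -1.09, -1.12 and -1.05 to -0.17 and -0.08 (adjusted p = 0.000253), a rise reached by 3 bins of 69621, itself included. In the 5′ segment the changes ran from -0.11 to 0.13. Without RIS replicate 1, or without centring, 7 bins were called.

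**Figure D5:**
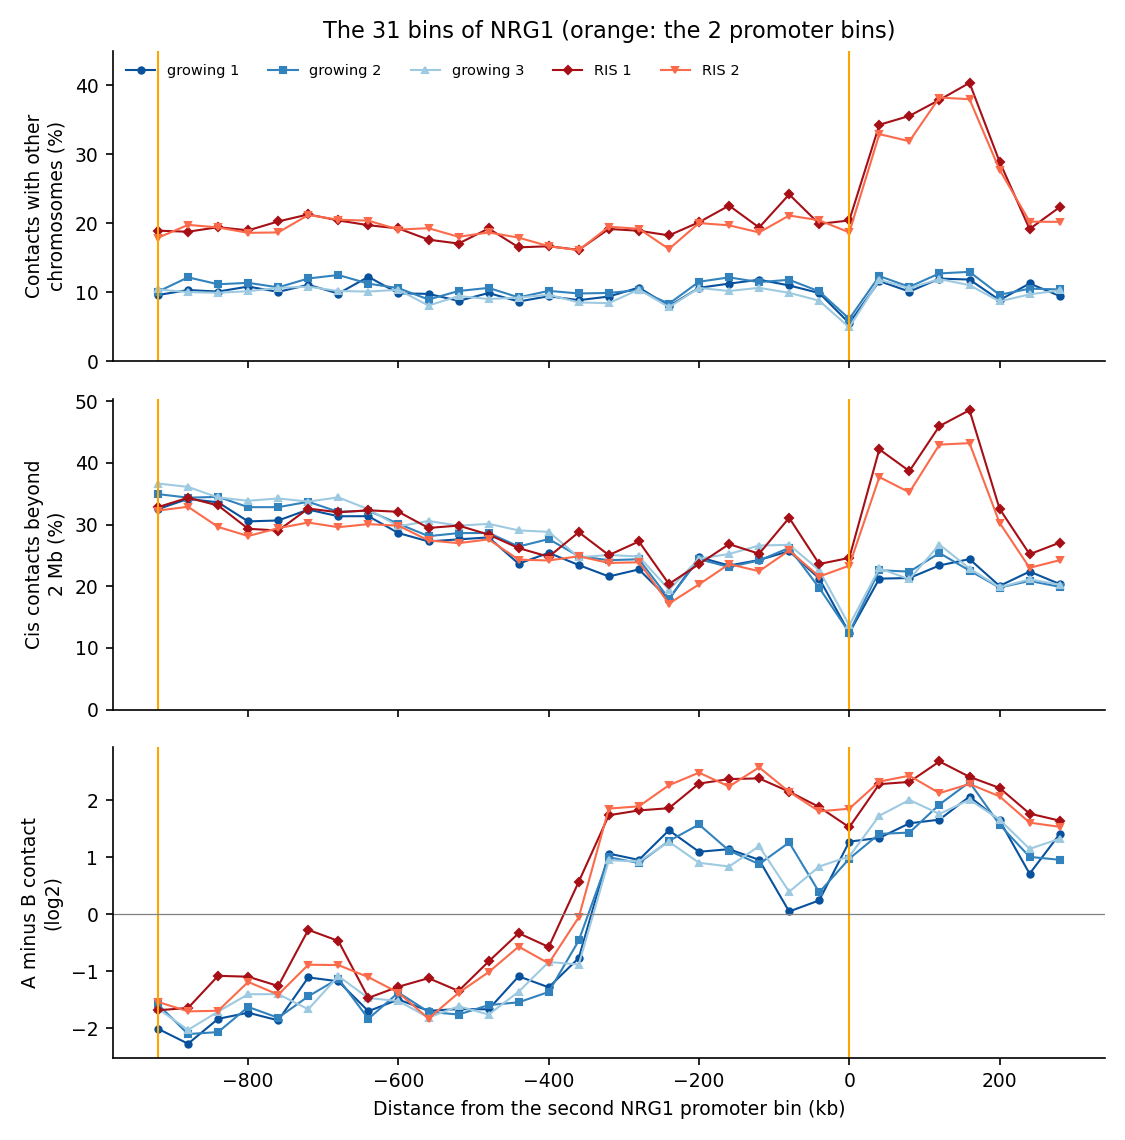
The 31 bins of NRG1 in the 5 libraries, against distance from the second promoter bin in kb. The share of contacts with other chromosomes (%, top), the share of cis contacts beyond 2 Mb (%, middle) and A minus B contact (log2, bottom) are drawn, with the promoter bins as orange lines. In the top panel both RIS libraries lie above all growing libraries in every bin, and the bins 40 to 200 kb downstream stand out in RIS. In the middle panel those 40 to 160 kb downstream stand out in RIS.

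The distant contacts of the second promoter bin on chromosome 8 depended on the partner. With the other chromosome arm its log2 observed/expected contact was -1.13, -1.50 and -1.48 in growing against 0.00 and 0.14 in RIS, 2.70-fold more in the mean. With A bins of that arm it rose by 1.61, and with B bins by 1.04. At 5 to 10 Mb downstream contact with A bins was -0.90, -0.97 and -0.31 in growing against 0.34 and 0.41 in RIS (change 1.10), and that with B bins overlapped between groups (0.07). At 10 Mb or more upstream the change was 0.69 with A bins and -0.06 with B bins. The whole 3′ segment lost contact with the B bins 2 to 5 Mb downstream (change -0.94) and gained it with the A bins there (0.83). The 5′ segment changed in a direction that depended on the band. At 5 to 10 Mb downstream it gained contact with B bins (0.79, 0.76 and 0.94 in growing, 1.52 and 1.56 in RIS) and with A bins (change 0.37). On the other arm contact with A bins rose by 0.60 and that with B bins overlapped between groups (0.07). It lost contact with B bins 10 Mb or more upstream (-0.34) and with A bins 5 to 10 Mb upstream (-1.20, -1.22 and -1.04 in growing, -1.94 and -1.87 in RIS). The middle segment gained contact with A bins 5 to 10 Mb downstream (0.56) and with B bins there (0.33), and it lost contact with A bins 5 to 10 Mb upstream (-0.44) and with B bins 10 Mb or more upstream (-0.62). These band values were not fitted across the genome, and none has an exact permutation p below 0.1.

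Pairs of 200 kb bins beyond 2 Mb let partners be named. Of the 760 NRG1 pairs tested, limma called 67, 16 higher and 51 lower, where 8.07% of all pairs were called, 4.48% higher and 3.59% lower. With voom on recovered contacts, here not corrected for balancing, 135 were called, 56 higher and 79 lower. Over all pairs 13.1% were called by voom, 8.74% higher and 4.39% lower. In either direction the limma count is near the share over all pairs, so it is no result about the gene. The differences between these counts and those over the genome were not tested, and the splits below are a description. Along the gene the 2 directions parted. The 200 kb bin that holds the second promoter bin had 11 higher and 2 lower of 102 tested pairs, and the bin that holds the first had 0 higher and 15 lower of 129. Of the 421 pairs with an A partner 15 were higher and 12 lower, and of the 339 with a B partner 1 was higher and 39 lower. This split differed along the gene. The 3 gene bins before 32 Mb had 0 higher and 6 lower of 96 pairs with A, and 0 and 26 of 260 with B. The 4 bins from 32 Mb had 15 higher and 6 lower of 325 with A, and 1 and 13 of 79 with B. With voom 46 pairs with A were higher and 23 lower, and 10 with B were higher and 56 lower. Shares over the genome by partner class were not computed. The 15 higher of 325 pairs with A from 32 Mb on are near the 4.48% higher over all pairs.

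The gain with the lowest p, at chr8:37400001-37600000, holds ZNF703, a zinc finger gene, and ERLIN2, a gene of the endoplasmic reticulum. Its balanced contact with the bin of the second promoter was 26.5, 23.1 and 21.9 in growing against 52.4 and 52.8 in RIS (log2 change 1.14 ± 0.23 SE, limma adjusted p = 0.016). ZMAT4, another zinc finger gene, and MSR1, which encodes a macrophage scavenger receptor, lay in the other 4 of the 5 top partners, all in A. The pair of the second promoter's bin with MSR1 held 10, 18 and 18 recovered contacts in growing and 29 and 31 in RIS (1.59 ± 0.35 SE, adjusted p = 0.0205). The 5 losses with the lowest p all had B partners with no protein-coding gene, within chr8:33600001-34600000, in the domain that follows the TAD. The first promoter bin's own 200 kb bin lost contact with chr8:33600001-33800000, from 183, 139 and 161 to 81.9 and 80.4 (-1.04 ± 0.15 SE, adjusted p = 0.00664). Single libraries weighed on these calls. Without RIS replicate 1 the 67 limma calls became 18, all lower, and without RIS replicate 2 they became 49, 3 higher and 46 lower. Without growing replicate 1, 2 or 3 they became 32, 22 or 19. The 135 voom calls became 38, 14 higher and 24 lower, without RIS replicate 1, and 61, 31 higher and 30 lower, without RIS replicate 2.

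To see which other genes changed alike, the 355 genes of at least 480 kb with all values were ranked by distance from NRG1 in the changes of body contact, insulation, A minus B contact and share beyond 2 Mb, each in units of its SD over genes. NRG1 itself had -0.15, -0.29, 0.68 and 0.22 for these changes. Its insulation change was 11th from the lowest and its A minus B change 9th from the highest, while its body contact was 50th from the lowest and its share beyond 2 Mb 105th from the highest. The nearest was GLIS3, a zinc finger transcription factor gene, at a distance of 1.10 and with changes of -0.18, -0.15, 0.57 and 0.15. The next were DLGAP1, a gene of a synaptic scaffold protein, at 1.76, and AKAP6, which anchors protein kinase A, at 1.86. NALF1, a gene of an ion channel's auxiliary factor, followed at 1.95 and NAV3, a neuron navigator gene, at 1.97. Of these 5, AKAP6 had a change of A minus B contact below 0 (-0.20), and the others had the sign of NRG1 in all 4 measures.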

How the data were processed

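The 5 Hi-C libraries were used, and the 4 capture Hi-C libraries were not analysed here. The authors mapped reads on hg19 with HiC-Pro, filtered artefacts with it and with diffHic, took out duplicates with samtools, and deposited as signal the ICE-balanced contacts of each pair of 40 kb bins, with the same total in each library. Dividing by 1 factor per bin gave back whole contacts, which served as depth and as input to voom. Gene starts came from GENCODE annotation of GRCh37.

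Bins, blocks and pairs were fitted genome-wide with limma 3.58.1 (R 4.3.3) and Benjamini-Hochberg adjustment at 5%. Pairs entered as log2(value + 0.5) and were normalised by a loess curve over abundance (span 0.3), with a mean scaled value of at least 5 at 40 kb and 10 at 200 kb. Borders were insulation minima with a prominence of 0.1. The voom model weights log2 recovered contacts by their precision at each abundance. At 40 kb these contacts were corrected by the balancing factors of both bins, and at 200 kb they were not. Single values were compared by exact permutation tests, two-sided. Scripts used Python 3.11.15 with numpy 2.4.6 and were tested on simulated data. Ligation products carry no molecular identifiers.

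The gene, its promoter bins, segments and measures were chosen with earlier results of these data known. Neighbours were named where their pair was among the 3 largest changes in each direction for either promoter bin. The 5 partners beyond 2 Mb with the lowest p in each direction and the 5 most alike long genes were also named. TTI2 was named after its value was seen. Alternatives were the pseudocount, filter, normalization, windows, bin size, scaling, recovered contacts, the replicate number or duplicate class as a block, and each library left out.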

Additional observations from a re-analysis of the deposited data

How the results depend on the processing

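Growing and RIS libraries share only a replicate number, and same-numbered libraries did not deviate together (r between -0.001 and 0.013 over pairs of bins). The replicate block left 7 bins with a called A minus B contact in place of 13, 1 promoter arm in place of 5 and 43 pairs of 200 kb bins in place of 67, and moved no other count by over 1.5 times. Leaving out each library in turn gave 14 to 23 bins for insulation (23 with all), 4 to 8 for the compartment score (8), 5 to 10 for A minus B contact (13), 7 to 9 for the share beyond 2 Mb (11) and 31 for other chromosomes (31). It gave 1 to 3 promoter arms (5), 5 to 6 blocks among long genes (5), 17 to 28 domain blocks (16), 18 to 49 pairs of 200 kb bins (67) and 0 to 53 pairs of 40 kb bins (0). With voom, chosen as a count of its own after the data were seen, these were 38 to 121 (135) and 35 to 109 (125).

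Among the other settings, bins of 200 kb gave 5 compartment bins, of fewer tested. A z-score of each library gave 0 bins for A minus B contact, and contacts with other chromosomes, added after the data were seen, gave 5. Without centring, 7 bins were called for the share beyond 2 Mb. The median of log2 values gave 3 promoter arms. For pairs of 200 kb bins a minimum of 1 gave 31 calls, a minimum of 20 gave 39, no trend gave 24 and voom 135, and for pairs of 40 kb bins voom gave 125. The cause of these shifts was not tested. No count moved by over 1.5 times under the remaining settings.

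Pairs of a promoter bin with a neighbouring gene rest on few contacts. With 2 RIS libraries, leaving out either leaves 1, which limma takes to vary like the growing libraries.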
